A study of Mus musculus with 48 samples.

Results

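Adipokines are the hormones and plasma proteins that fat secretes, and 10 genes of this system were followed here: 7 ligands (Lep, Adipoq, Retn, Cfd, Rbp4, Nrg4 and Apln) and 3 receptors (Lepr, Adipor1 and Adipor2). They were picked by name from the 54532 genes of the count table by a rule that uses no measured value, although earlier results of these data were known when they were proposed, and all 10 were among the 19977 genes that passed the filter on low counts. Bulk RNA-seq was run on the inguinal (subcutaneous) white fat, iWAT, of C57BL/6 males aged 8 months, the age and strain shared by both groups. Mice ate regular chow either freely (ad-lib, AL) or in 2 meals each night (twice-a-night, TAN), the first offered at 9 to 11PM and the last at 5 to 7AM, and fat was taken at 6 clock times from 4 animals of each diet at each time, which gives 48 libraries in 12 groups. No transgene or deletion was involved in these samples. The deposited design text calls the material the stromal vascular fraction, the cells left once adipocytes are removed, whereas the study's methods describe whole fat pads. Genes of the mature adipocyte were abundant in every library, with the summed level of 14 adipocyte markers (Plin1, Fabp4, Lipe and others) between 5735 and 57920 CPM (counts scaled to a common library size).

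Each library held 15636378 to 29913310 counts. Clock times are given as the deposited labels have them, but the study's supplementary table of the same libraries lists each of the 48 with a time 12 h away, at the same diet and replicate number. By the deposited labels the clock output gene Dbp had its highest mean CPM at 4PM in both diets, 101.9 in AL and 153.9 in TAN. Dbp usually peaks late in the light phase of mice, and lights went out at 8PM. Comparisons of TAN with AL at 1 time are not touched by this, while every statement on hours is. The inguinal pad also holds a lymph node, and 10 of the 48 libraries were poor in lymphocyte RNA. In these 10 the summed CPM of 10 lymphocyte markers (Cd3e and others) was 6.97 to 34.8, against 282 to 2208 in the other 38, and that of 10 lymph node markers was 10.5 to 48.8 against 196 to 1542. The 10 libraries were 4 of AL (8AM replicate 4, 12PM replicates 1 and 3, 4AM replicate 3) and 6 of TAN (4PM replicates 1, 2 and 4, 8PM replicate 4, 12AM replicates 2 and 4). Adipocyte markers summed to a median of 41932 CPM in the 10 and 23932 CPM in the 38. Replicates 1 and 2 of TAN at 8PM stood apart in the other direction, with the lowest adipocyte and the highest lymphocyte marker levels of all. In bulk tissue, fewer cells of a type and less RNA per cell cannot be told apart.

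Leptin, encoded by Lep, reports the size of the fat stores to the brain and acts through the cytokine-type receptor Lepr, which signals by JAK2 and STAT3. Adiponectin (Adipoq) acts through Adipor1 and Adipor2, seven-pass proteins linked to AMPK, PPARα and ceramide breakdown, and is made almost exclusively by adipocytes. Resistin (Retn) and adipsin (Cfd, complement factor D) are further adipocyte products of the mouse, Rbp4 carries retinol in plasma, Nrg4 is a ligand of ErbB receptors and apelin (Apln) binds the receptor Aplnr. In the mouse genome (GRCm38) Lep (ENSMUSG00000059201) lies at chr6:29060220-29073877 and Adipoq (ENSMUSG00000022878) at chr16:23146536-23158028. Lepr (ENSMUSG00000057722) spans chr4:101717404-101815352, Adipor1 (ENSMUSG00000026457) chr1:134415378-134433351 and Rbp4 (ENSMUSG00000024990) chr19:38116620-38125321, the last on the minus strand.

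Lep and Adipoq are the classic genes of the mature adipocyte and Lepr went another way in these libraries, so the bases just before their annotated starts are shown (RefSeq, GRCm38.p6, plus strand, 5′ to 3′). Capitals mark the C/EBP motif TTNCNNAA, the CCAAT box CCAAT and the GC box GGGCGG, on either strand, and lower case is the rest. The stretches lie at chr6:29060101-29060220 for Lep, chr16:23146416-23146535 for Adipoq and chr4:101717287-101717406 for Lepr.
Lep: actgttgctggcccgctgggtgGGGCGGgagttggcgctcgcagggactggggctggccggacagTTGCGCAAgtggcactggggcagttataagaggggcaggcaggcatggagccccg
Adipoq: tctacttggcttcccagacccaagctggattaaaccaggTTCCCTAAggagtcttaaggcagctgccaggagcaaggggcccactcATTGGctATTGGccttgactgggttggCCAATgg
Lepr: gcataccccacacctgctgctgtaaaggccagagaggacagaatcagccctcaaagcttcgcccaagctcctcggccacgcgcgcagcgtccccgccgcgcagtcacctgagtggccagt
The Lep stretch holds a C/EBP motif and a GC box, and the Adipoq stretch a C/EBP motif and 3 CCAAT boxes. The 120 bases shown for Lepr hold none of these letters. Farther upstream this Lepr start has a CCAAT box at -195 to -191. The other RefSeq entry of Lepr has a GC box at -164 to -159. Over the 250 bases before each start, the 10 genes have 13 RefSeq promoter entries, of which 6 hold the C/EBP motif, 4 the CCAAT box, 6 the GC box and 1 the TATA box TATAAA. Among 32851 promoters of that length 36.8%, 33.8%, 32.7% and 12.4% hold them. The clock-related D-box TTANNTAA and E-box CACGTG were in 0 of the 13 entries and in 5.43% and 6.02% of all promoters.

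Per kb of gene length, the ligands of the adipocyte led and the receptors followed. Adipsin was the most abundant, with a median of 13180 CPM per kb over the 48 libraries, followed by Adipoq at 1992, Retn at 769, Rbp4 at 422 and Lep at 229 CPM per kb. Of the receptors, Adipor2 had a median of 116 CPM per kb, Adipor1 40.3 and Lepr 6.99. Nrg4, at 16.1 CPM per kb, lay above Lepr, and Apln, at 2.70 CPM per kb, was lowest. The order from Cfd through Adipoq and Retn to Rbp4 held in all 48 libraries, as did the steps from Adipor2 to Adipor1 and from Adipor1 to Nrg4. Neighbours that changed places in some libraries were Rbp4 and Lep (Rbp4 higher in 42), Lep and Adipor2 (Lep higher in 40), Nrg4 and Lepr (Nrg4 higher in 43) and Lepr and Apln (Lepr higher in 35). Levels per kb use the whole merged exon length, so a gene of which only short isoforms are made reads too low, and the isoforms of Lepr cannot be separated in gene counts. Nrg4 overlaps Fbxo22 by 4212 bases on the opposite strand, and since strand use in the counting is not stated, part of its counts cannot be told apart from those of Fbxo22.

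**Figure D1:**
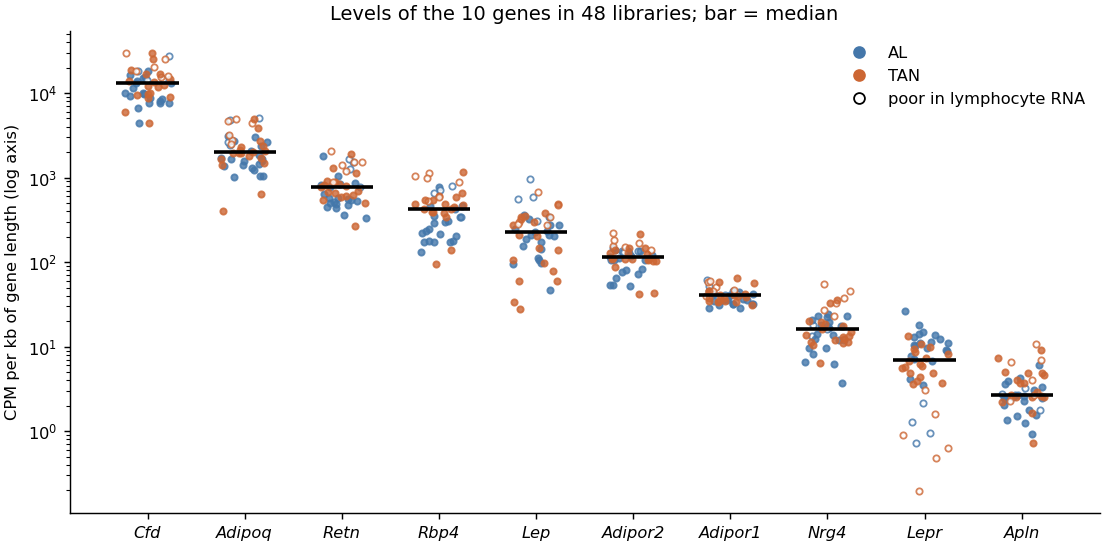
Level of each of the 10 genes in CPM per kb of gene length (log axis), 1 point per library, blue for AL and orange for TAN, open where the library was poor in lymphocyte RNA, with a bar at the median. The medians run from 13180 for Cfd to 2.70 for Apln, and Lepr has the widest spread, its open points lying under all its filled ones.

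Lepr varied more than any other of the 10, 135-fold from the lowest library (1.38 CPM, TAN at 12AM, replicate 4) to the highest (187 CPM, AL at 12PM, replicate 2). Adipor1 varied least, 2.29-fold, and Adipor2 varied 5.28-fold. The low Lepr values were those of the libraries poor in lymphocyte RNA: 1.38 to 21.5 CPM (median 6.53) in the 10 and 24.6 to 187 CPM (median 62.3) in the other 38, so that the 2 sets did not overlap. Adipor1 and Adipor2 lay the other way, with medians of 246 and 867 CPM in the 10 and 188 and 656 CPM in the 38. All 7 ligands also had the higher median in the 10 libraries, among them Lep with 1354 against 682 CPM and Adipoq with 5240 against 2432 CPM. The shares of all genes that did not overlap between the 2 sets, or had the higher median in the 10, were not computed. Within each diet the picture was alike for Lepr: its median was 7.90 CPM in 4 AL libraries against 76.0 CPM in 20, and 5.44 CPM in 6 TAN libraries against 42.8 CPM in 18.

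To set the genes against lymphocyte RNA among libraries of the same diet and time, a lymphocyte score, the mean log2 CPM of the 10 lymphocyte markers, was added to the fit across all genes. All 10 genes had a slope on this score that passed an adjusted p under 0.05 (edgeR quasi-likelihood test, Benjamini-Hochberg), where 44.9% of all genes tested did, 23.1% upward and 21.8% downward. Lepr was the only one of the 10 that rose with the score, by 0.44 on the log2 scale per unit (SE 0.05, adjusted p = 2.75e-10). The 7 ligands fell with it, with slopes from -0.23 (Lep) to -0.13 (Cfd and Apln). Adipor2 fell with a slope of -0.12 and Adipor1 with one of -0.04, the latter at an adjusted p of 0.0406 that passed 0.05 in 39 of 48 fits with 1 library left out. The 9 fits that lost it were without AL replicates 4 at 8AM, 1 and 4 at 12PM and 4 at 8PM, or TAN replicates 1, 2 and 4 at 8PM and 1 and 2 at 12AM, with adjusted p-values of 0.0503 to 0.133. Without the 10 libraries poor in lymphocyte RNA the slope of Lepr was 0.43 (adjusted p = 0.0158), where 28.6% of genes passed. When an adipocyte score, the mean log2 CPM of the 14 adipocyte markers, was added as well, Lepr kept a slope of 0.42 (SE 0.06, adjusted p = 1.78e-06). The other 9 genes then had slopes between -0.07 (Rbp4, adjusted p = 0.245) and 0.00305 (Adipor2, adjusted p = 0.963), and 12% of genes passed.

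**Figure D2:**
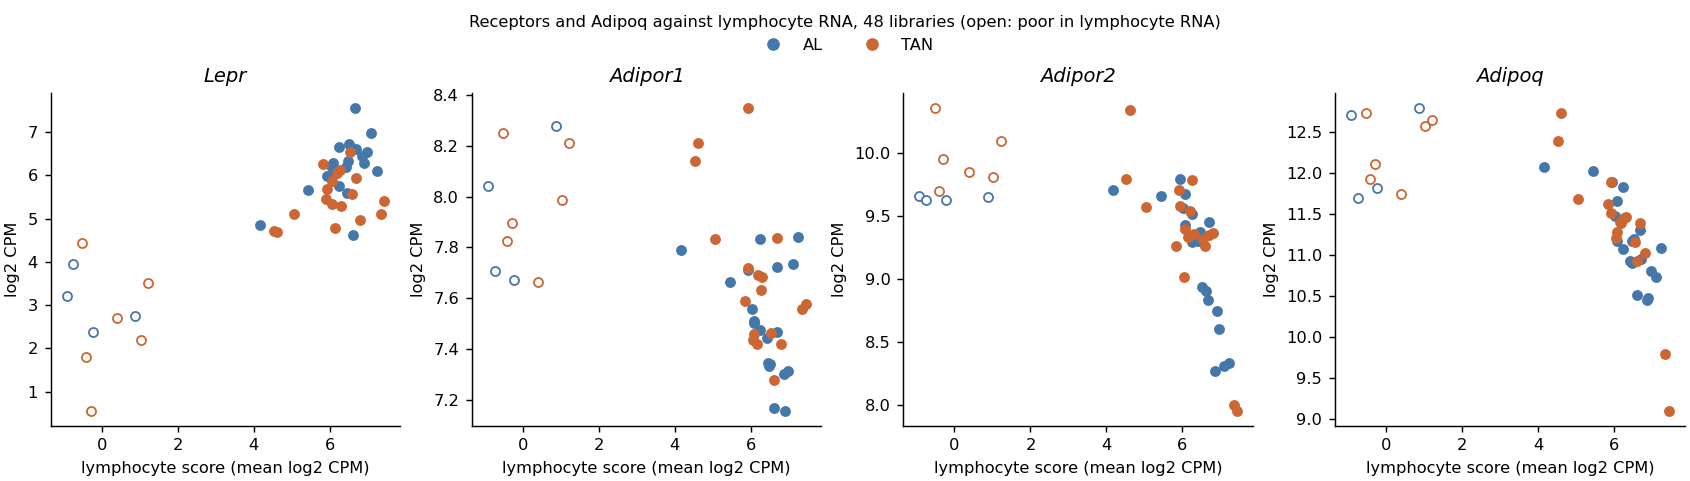
Level (log2 CPM) of Lepr, Adipor1, Adipor2 and Adipoq against the lymphocyte score (mean log2 CPM of 10 markers) in 48 libraries, blue for AL and orange for TAN, open where poor in lymphocyte RNA. The 10 open points form a cluster of their own between scores of -0.93 and 1.22, low for Lepr and high for Adipoq and Adipor2.

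Because the libraries form 2 clusters, correlations were taken within each. The permutations moved values freely among libraries of both diets and all times, so differences between groups also enter r and p. Over the 38 libraries Lepr had a Pearson r of 0.452 with the score (permutation p = 0.00444, adjusted 0.00888 over 20 relations) and a Spearman rho of 0.371 (permutation p = 0.0215, adjusted 0.0429). Without the 2 libraries farthest from the median score the r of Lepr was 0.312. Adipor2 had an r of -0.771, Adipor1 of -0.525 and Adipoq of -0.828, and the permutation p of Adipor2 and Adipoq, 1e-05, is the smallest that 100000 permutations can give. Within the 10 libraries none of the 10 genes passed, and Lepr had an r of -0.0937 (permutation p = 0.798).

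**Figure D3:**
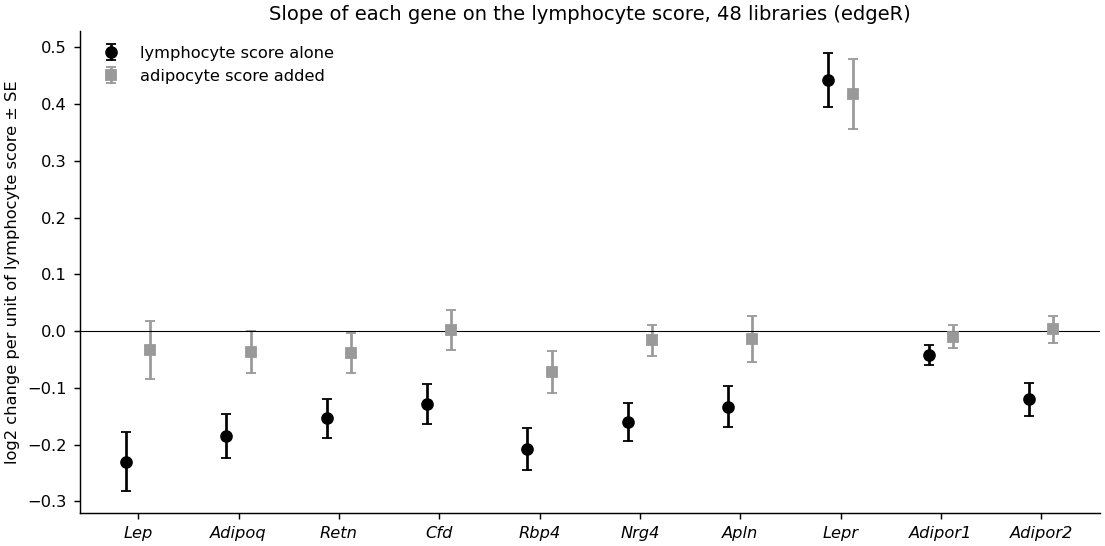
Slope of each gene on the lymphocyte score (log2 change per unit, ± SE, edgeR over 48 libraries), in black with the score alone and in grey with the adipocyte score added. Lepr stands at 0.44 and 0.42, while the other 9 genes lie under 0 in black and between -0.07 and 0.00305 in grey.

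The comparison of TAN with AL at the same time asks how these genes differed between the feeding regimes. The study reports a slightly lower food intake in TAN than in ad-lib mice, so meal timing and intake cannot be told apart. Of 60 tests, 10 genes at 6 times, 4 passed, where 4.54% of all such tests did. The differences passed for Retn, Rbp4 and Lepr at 4PM and for Adipor1 at 8PM. Values of all 10 genes in each library are plotted by time.

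**Figure D4:**
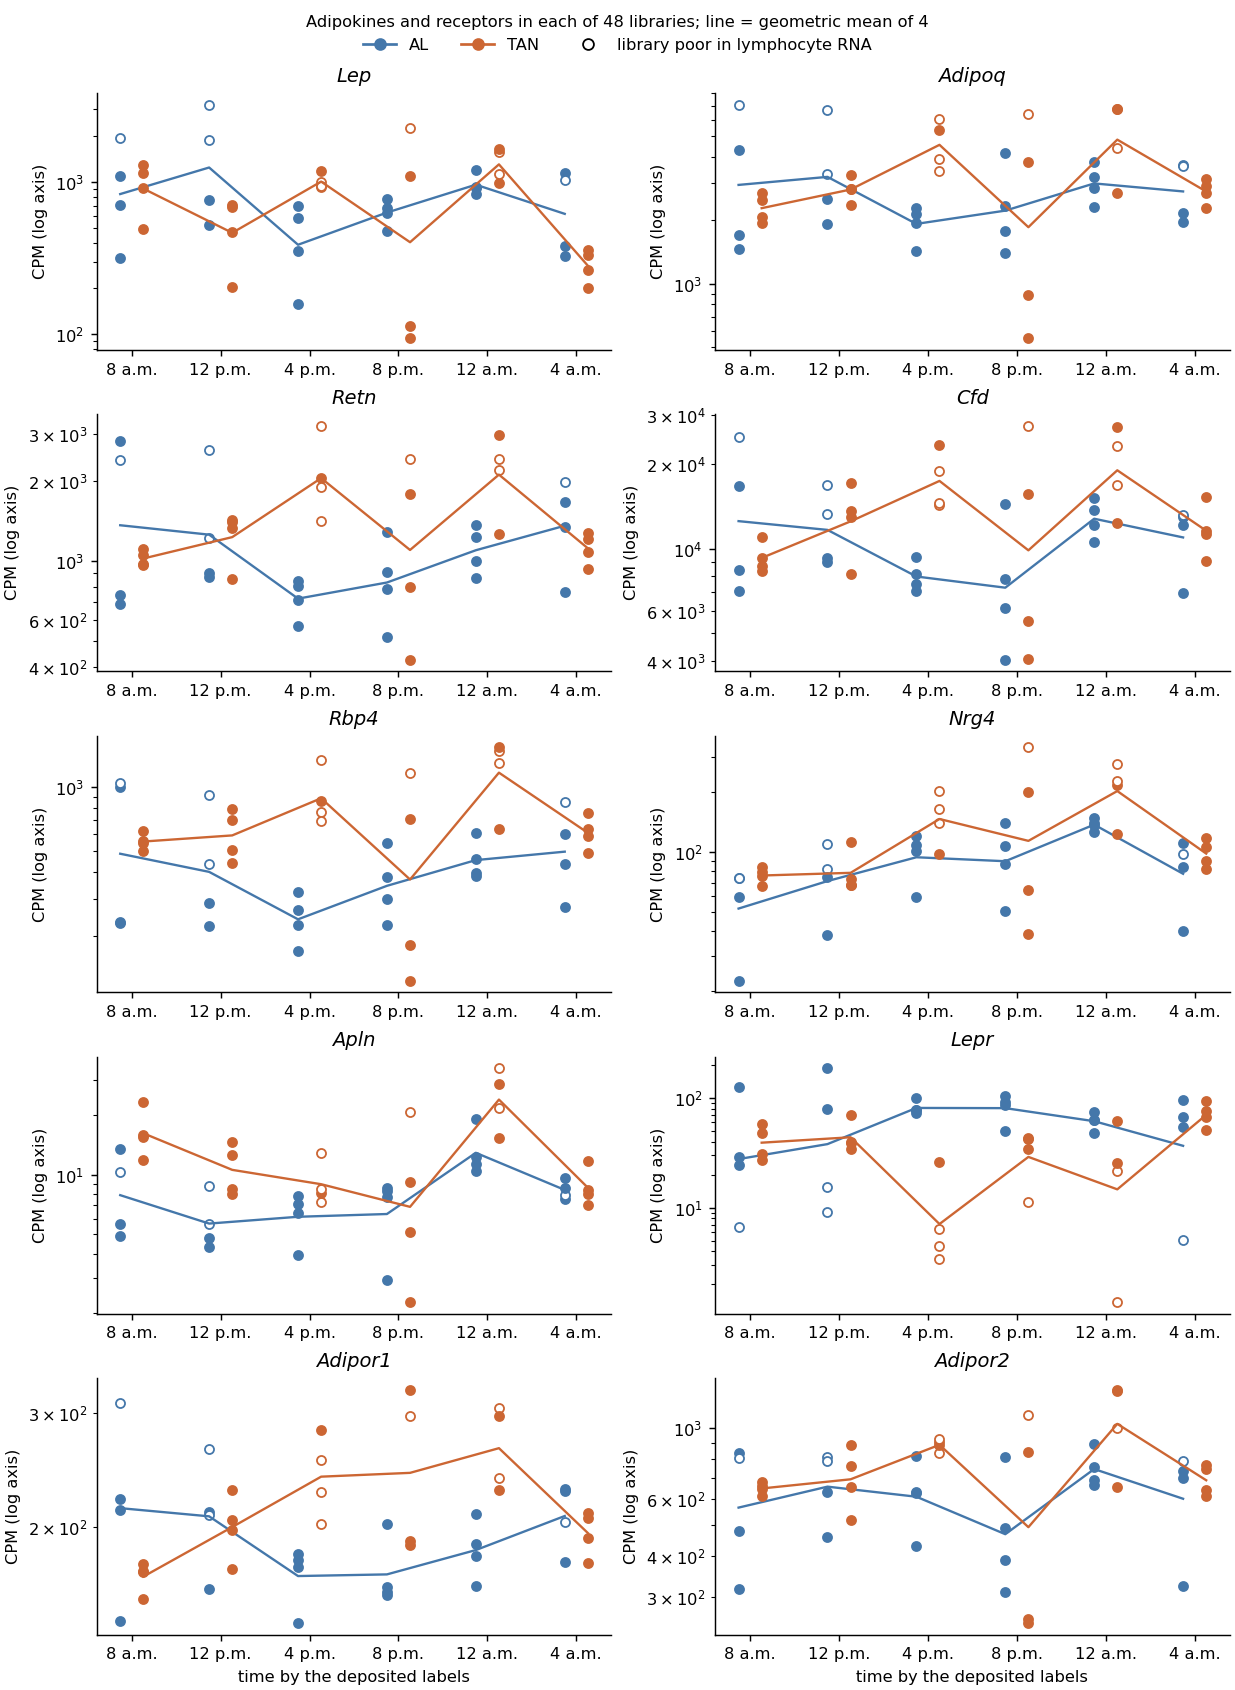
CPM (log axis) of each gene in each library by time, blue for AL and orange for TAN, 4 points a group, open where poor in lymphocyte RNA, with a line through the geometric mean of the group. At 4PM Retn and Rbp4 of TAN lie above all AL points and Lepr below them, and 3 of the 4 TAN points there are open.

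At 4PM the retinol carrier Rbp4 was at 323, 265, 172 and 227 CPM in the 4 AL libraries and at 1337, 766, 860 and 693 CPM in the 4 TAN libraries. All TAN values were above all AL values, and the rise was 3.7-fold (log2 fold change 1.89, SE 0.50, adjusted p = 0.0154, edgeR). Retn was at 838, 804, 567 and 711 CPM in AL and at 3226, 1414, 2057 and 1894 CPM in TAN, a 2.94-fold rise (log2 1.56, SE 0.42, adjusted p = 0.0173, edgeR). The leptin receptor went down: Lepr was at 100.2, 77.6, 77.9 and 72.4 CPM in AL and at 4.46, 3.40, 26.1 and 6.42 CPM in TAN (log2 -3.02, SE 0.85, adjusted p = 0.0202, edgeR). At this time 15.3% of all genes passed, 6.54% upward and 8.77% downward. The 2 diets did not overlap for 8 of the 10 genes, all but Nrg4 and Apln, where 30.6% of all genes did not overlap. Lep, at 157 to 698 CPM in AL and 929 to 1172 CPM in TAN, was among the 8 but did not pass (log2 1.18, SE 0.62, adjusted p = 0.181, edgeR), nor did Adipoq (log2 1.26, SE 0.49, adjusted p = 0.0672, edgeR). The median log2 fold change of the 10 genes was 0.89, against -0.09 over all genes tested.

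Markers of other cell types moved with these differences. Summed lymphocyte markers were at 8.43 to 292 CPM in TAN and 850 to 1492 CPM in AL at 4PM, with 3 of 10 called lower and a median log2 fold change of -3.63. Of the 10 lymph node markers 5 were called lower (median -3.79), and adipocyte markers summed to 37373 to 57920 CPM in TAN and 16866 to 24782 CPM in AL, 2 of 14 called higher (median 0.78). Beige adipocyte markers summed to 119.9 to 255 CPM in TAN and 44.1 to 107 CPM in AL, 3 of 6 called higher (median 2.08). Lower in TAN were 2 of 7 progenitor markers (382 to 738 CPM against 544 to 679, median -1.25), 1 of 8 macrophage markers (415 to 1872 CPM against 1453 to 2304, median -0.80), 1 of 8 endothelial markers (median 0.11) and 1 of 3 epithelial markers tested, while 0 of 9 muscle markers passed. The part of these cell types in the 3 differences was not tested. With the lymphocyte score in the fit no gene of the 10 passed at 4PM, and 0% of all genes did: Rbp4 had a log2 fold change of 0.91 (adjusted p = 0.348), Retn 0.83 (adjusted p = 0.353) and Lepr -1.25 (adjusted p = 0.298). With the adipocyte score in its place Rbp4 passed (log2 1.08, adjusted p = 0.0432), as 2.29% of genes did, whereas Retn was at 0.93 (adjusted p = 0.059) and Lepr at -2.21 (adjusted p = 0.0798). A fit that held the share of counts at TEC loci, gene models that Ensembl marks as still awaiting experimental proof, ended all 3 calls, at adjusted p-values of 0.136 (Rbp4), 0.16 (Retn) and 0.0718 (Lepr), where 0.365% of genes passed. At 4PM the TEC share was 0.0327 to 0.0847% in TAN and 0.0882 to 0.110% in AL. The lymphocyte score was -0.41 to 4.52 in TAN and 6.07 to 6.90 in AL, and the adipocyte score 10.2 to 10.6 and 9.25 to 9.88. None of the 3 overlapped between the diets, so none of them can be told apart from the diet at this time. Without the 10 libraries poor in lymphocyte RNA, which leaves replicate 3 as the only TAN library at 4PM and assumes that it varies like the other groups, Rbp4 was at 1.79 (adjusted p = 0.06), Retn at 1.48 (adjusted p = 0.0767) and Lepr at -1.66 (adjusted p = 0.117), where 6.53% of genes passed. Leaving out replicate 3 of AL or replicate 1 of TAN at 4PM took Retn, Rbp4 and Lepr past 0.05, to adjusted p-values between 0.0535 and 0.0743. Lepr was also lost without replicate 2 of TAN at 4PM, at an adjusted p of 0.0503.

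**Figure D5:**
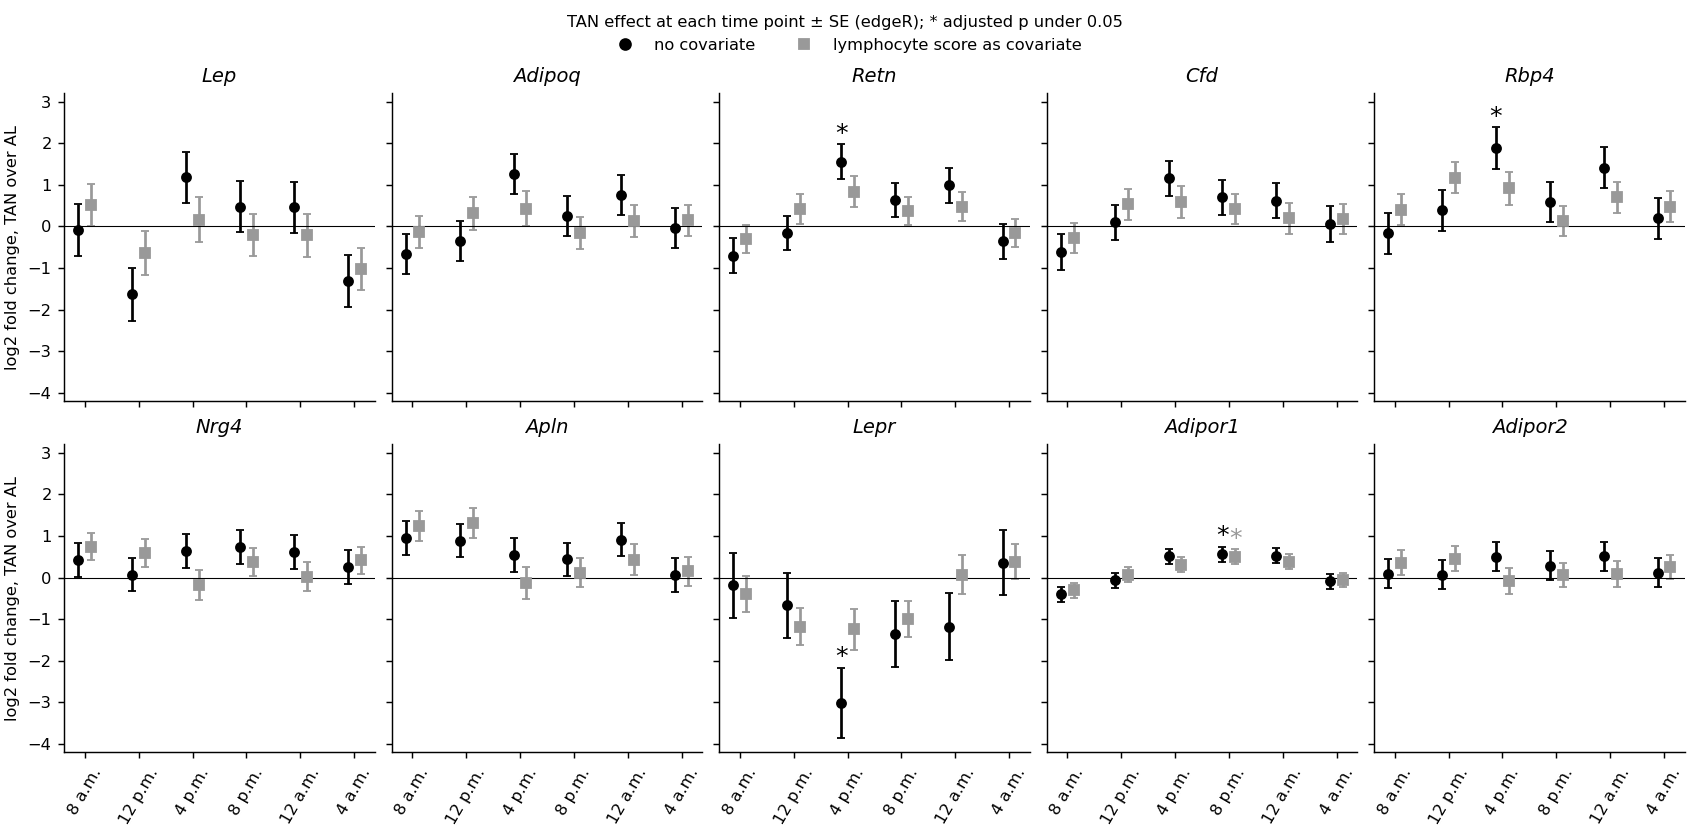
Log2 fold change of TAN over AL (± SE, edgeR) at each of 6 times for the 10 genes, black without and grey with the lymphocyte score as a covariate, with a star where the adjusted p was under 0.05. Black stars stand at 4PM for Retn, Rbp4 and Lepr and at 8PM for Adipor1, and of these Adipor1 alone keeps a grey star.

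At 8PM the adiponectin receptor Adipor1 was at 158, 162, 159 and 203 CPM in AL and at 188, 191, 326 and 296 CPM in TAN. Replicate 4 of AL lay above the 2 lower TAN libraries, so the diets overlapped, and the rise was 1.47-fold (log2 0.56, SE 0.18, adjusted p = 0.0427, edgeR). At this time 11.7% of all genes passed, 3.76% upward and 7.91% downward. Lepr was the only one of the 10 without overlap at 8PM (log2 -1.35, adjusted p = 0.276), where 16.1% of all genes did not overlap. Adjusted for the lymphocyte score the value of Adipor1 was 0.50 (adjusted p = 0.0333, 19.3% of genes passed), and without the 10 libraries poor in lymphocyte RNA it was 0.47 (adjusted p = 0.0784, 17.3%). In a fit of the 8PM libraries alone Adipor1 was at 0.58 (adjusted p = 0.285, edgeR), where 0.34% of genes passed. The call was also lost in 5 of 8 fits that left out a library of these groups (replicates 1, 2 and 3 of AL, 3 and 4 of TAN), at adjusted p-values of 0.0934 to 0.155. Lower in TAN at 8PM were 3 of 8 endothelial markers (summed to 225 to 467 CPM against 478 to 729 in AL, median -0.61), 2 of 7 progenitor markers (409.5 to 469 CPM against 530.2 to 642, median -0.02) and 1 of 8 macrophage markers (median -0.23), and their part in the rise of Adipor1 was not tested. No lymphocyte, lymph node or adipocyte marker passed at this time. The TEC share was 0.0294 to 0.0394% in TAN and 0.0807 to 0.104% in AL at 8PM. Once the fit held this share, Adipor1 was at -0.06 (adjusted p = 0.895) and 1.04% of genes passed. The share and the diet cannot be told apart at this time. At 12AM Adipor1 was at 181, 210, 163 and 188 CPM in AL and at 228, 305, 297 and 238 CPM in TAN, with no overlap (log2 0.53, SE 0.18), but the adjusted p was 0.157 (edgeR). Rbp4 did not overlap at 12AM either (log2 1.41, adjusted p = 0.157), and 9.13% of all genes did not.

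Replicates 1 and 2 of TAN at 8PM had the lowest levels of several adipocyte genes. Lep was at 113 and 93.8 CPM there, and at 1089 and 2260.3 CPM in replicates 3 and 4, against 479 to 776 CPM in AL. A fit without these 2 libraries was chosen after the data were seen. Their adipocyte scores were 8.06 (replicate 1) and 7.55 (replicate 2), the lowest of all. Leaving them out by itself raises TAN values of adipocyte genes at 8PM, where replicates 3 and 4 remain, the latter poor in lymphocyte RNA. In that fit 10 of 60 tests passed: Adipoq, Retn, Cfd, Rbp4, Lepr and Adipor1 at 4PM, and Retn, Cfd, Nrg4 and Adipor1 at 8PM. The share of all genes that passed was then 20.3% at 4PM and 10.8% at 8PM.

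At the other times none of the 10 genes passed without a covariate, and few genes of the whole table did: 0.015% at 8AM, 0.0901% at 12PM, 0.15% at 12AM and 0% at 4AM (edgeR). At an unadjusted p under 0.05, 2 of the 10 passed at 8AM, 2 at 12PM, 4 at 12AM and 1 at 4AM, where 6.58%, 7.37%, 17.5% and 2.64% of all genes did. DESeq2 called 1 of the 10 at these times, Adipor1 at 12AM (adjusted p = 0.0459), where it called 3.08% of all genes. The fit with the adipocyte score called Lep at 12PM.

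Over the day as a whole, 2 of the 10 genes were higher in TAN, where 2.68% of all genes were and 5.42% passed in either direction. Rbp4 rose 1.64-fold in the mean of the 6 times (log2 0.72, SE 0.20, adjusted p = 0.0288, edgeR), with the higher group mean in TAN at 5 of 6 times. Apelin rose 1.55-fold (log2 0.63, SE 0.16, adjusted p = 0.0199, edgeR) and was higher in TAN at 6 of 6 times, although the 2 diets overlapped at each time. Adjusted for the lymphocyte score its value at 4PM, where 3 of 4 TAN libraries were poor in lymphocyte RNA, was -0.14. Its group means were 8.58 CPM in AL and 16.6 in TAN at 8AM, and 13.2 and 24.9 at 12AM, the 2 times with the largest difference. Apelin counts are low, with 57 to 545 counts per library. Adjusted for the lymphocyte score Rbp4 was at 0.63 (adjusted p = 0.00878) and Apln at 0.52 (adjusted p = 0.0284), where 5.38% of genes passed, and both also passed without the 10 libraries, at 0.83 (adjusted p = 0.00874) and 0.53 (adjusted p = 0.0462). Once the fit held the TEC share neither passed, with Rbp4 at an adjusted p of 0.136 and Apln at one of 0.0628, where 3.37% of genes did. Apln passed in all 48 fits with 1 library left out. Rbp4 passed in 46, the exceptions being replicate 1 of AL at 4AM (adjusted p = 0.0523) and replicate 4 of TAN at 8PM (adjusted p = 0.052).

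Lepr was lower in TAN at 5 of 6 times, and its mean difference of -1.01 (SE 0.32) had an adjusted p of 0.0578 (edgeR). DESeq2 called it over all libraries (log2 -1.01, adjusted p = 0.0242, 7.69% of genes), and in edgeR the call depended on the libraries and the covariates. Without the 10 poor in lymphocyte RNA Lepr fell by 0.89 on the log2 scale (SE 0.20, adjusted p = 0.00381), where 13.7% of genes passed. Adjusted for the lymphocyte score it was at -0.56 (adjusted p = 0.0555). Adjusted for the adipocyte score Lepr was at -0.61 (adjusted p = 0.185, 7.76% of genes) and with the TEC share at -1.20 (adjusted p = 0.0598, 3.37%). By limma voom it was at -0.88 (adjusted p = 0.134, 3.89%). It also passed in 6 of 48 fits with 1 library left out (replicate 4 of AL at 8AM, replicates 1 and 3 of AL at 12PM, replicate 3 of AL at 4AM, replicate 3 of TAN at 4PM and replicate 1 of TAN at 12AM), at adjusted p-values of 0.0247 to 0.0394. Nrg4 was higher in TAN at 6 of 6 times but did not pass (log2 0.45, SE 0.17, adjusted p = 0.0957), and it passed without replicate 2 of TAN at 8PM (adjusted p = 0.0318). Without both that library and replicate 1 of the same group, 7 of the 10 genes passed, with Cfd at 0.45, Nrg4 at 0.58, Adipor1 at 0.22, Adipor2 at 0.37 and Lepr at -1.05 beside Rbp4 and Apln, where 12.3% of genes did. These 2 libraries were left out for their low adipocyte scores after the data were seen, which by itself raises adipocyte genes in TAN. Adipor2 was higher in TAN at 6 of 6 times as well (log2 0.26, SE 0.14, adjusted p = 0.278 over all libraries). Adjusted for the lymphocyte score, Nrg4 at -0.19 and Adipor2 at -0.08 were below 0 at 4PM.

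Leptin, the hormone of the fat stores, showed no mean difference that passed (log2 -0.15, SE 0.25, adjusted p = 0.781, edgeR), and its sign differed between times, 3 up and 3 down. Adjusted for the adipocyte score the mean effect of Lep was -0.49 and passed (adjusted p = 0.0444), where 7.76% of genes did. At 12PM Lep was at 3210, 761, 1887 and 519.7 CPM in AL and at 203, 471, 703 and 686 CPM in TAN. The 2 highest AL values were those of the libraries poor in lymphocyte RNA, and the difference (log2 -1.63, SE 0.63) had an adjusted p of 0.594 (unadjusted 0.0135, edgeR). It passed once the fit held the adipocyte score (log2 -1.65, adjusted p = 0.0284, 0.621% of genes), and it was -0.30 (adjusted p = 0.916) without the 10 libraries poor in lymphocyte RNA. At 4AM Lep was at 380.4, 1147, 1025 and 325 CPM in AL and at 331, 264, 202 and 357 CPM in TAN, with 2 TAN libraries above the lowest AL library (log2 -1.32, SE 0.63, unadjusted p = 0.0412, not passed after adjustment, edgeR).

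Set against adiponectin within each library, which takes out what the 2 adipocyte genes share, the log2 ratio of Lep to Adipoq at 4AM averaged -3.43 in AL (-4.03 to -2.95) and -4.56 in TAN (-5.01 to -4.39). The diets did not overlap in this ratio at 4AM, where TAN was 1.13 lower. At the other 5 times they overlapped, with differences (TAN minus AL) of 0.48 at 8AM, -1.23 at 12PM, 0.13 at 4PM, -0.39 at 8PM and -0.25 at 12AM. The ratio was looked at after the values of Lep were known, and no test was made of it. Of single genes 3.09% did not overlap between the diets at 4AM, and the share among ratios of genes was not computed.

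Over the 24 h the 10 genes were tested for any variation between the 6 times and for a 24-h harmonic, a cosine wave fitted to the log2 levels. In AL none of the 10 passed either test without a covariate (edgeR), where 0.0551% and 0.0801% of all genes did. At an unadjusted p under 0.05, none of the 10 varied between times in AL, and 5 had a harmonic (Retn, Rbp4, Nrg4, Apln and Adipor1), where 6.67% and 11.4% of all genes did. In TAN 3 genes varied between times, where 23% of all genes did: Apln (adjusted p = 0.0137), Nrg4 (adjusted p = 0.0256) and Adipor1 (adjusted p = 0.0375).

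Apelin in TAN went from 24.9 ± 8.26 CPM (SD, n = 4) at 12AM and 16.6 ± 4.78 at 8AM to 8.75 ± 2.03 at 4AM and 9.16 ± 2.51 at 4PM. Neuregulin 4 in TAN was highest at 12AM, with 210 ± 63.4 CPM, and lowest at 8AM, with 76.4 ± 6.95 CPM. Its 24-h harmonic passed (adjusted p = 0.00873, edgeR), with a difference of 1.44 between peak and trough on the log2 scale and the peak at 21.2 h after midnight, where 19.8% of all genes passed. In AL the means of Nrg4 were also highest at 12AM (137 ± 9.58) and lowest at 8AM (57.4 ± 24.2 CPM), and the harmonics of the 2 diets did not differ (adjusted p = 0.699). Adipor1 in TAN rose from 168 ± 9.01 CPM at 8AM to 267 ± 39.3 CPM at 12AM, with a harmonic of 0.62 between peak and trough (adjusted p = 0.0112, edgeR) and a peak at 20.4 h. Without the 10 libraries Apln alone of the 10 still varied between times, where 19.5% of genes did. The harmonic of Nrg4 then had an adjusted p of 0.141, where 21.9% of genes passed. With the lymphocyte score in the fit the Nrg4 harmonic passed in TAN (adjusted p = 0.0402, 22.7% of genes) and in AL (adjusted p = 0.025, 0.275%). With the adipocyte score it also passed in TAN (adjusted p = 2.31e-06, 35.4%) and in AL (adjusted p = 7.93e-05, 0.646%). With the TEC share it passed in neither (adjusted p = 0.143 in TAN and 0.948 in AL, edgeR). The harmonic of Adipor1 in TAN then had an adjusted p of 0.995 (edgeR), where 1.25% of genes passed. Variation between times was lost for all 3 genes without replicate 2 of TAN at 12AM, at adjusted p-values of 0.0603 (Nrg4), 0.0606 (Apln) and 0.0738 (Adipor1). Adipor1 was lost as well without replicate 3 of TAN at 12AM (adjusted p = 0.0694), replicate 2 of TAN at 8AM (adjusted p = 0.0603) or replicate 4 of TAN at 8AM (adjusted p = 0.0577).

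The TAN effect itself differed between times for Retn (adjusted p = 0.0407) and Adipor1 (adjusted p = 0.0287, edgeR), where 8.98% of all genes passed. Both genes also passed the test for unlike 24-h harmonics, Retn at an adjusted p of 0.0113 and Adipor1 at one of 0.00316, where 20.2% of all genes did. Retn was lower in TAN at 8AM (log2 -0.70, SE 0.42), higher at 4PM (1.56, SE 0.42) and lower at 4AM (-0.36, SE 0.41), and of these the 4PM value passed. Adipor1 stood at -0.40 (SE 0.18) at 8AM and at 0.51 to 0.56 from 4PM to 12AM. Adjusted for the lymphocyte score the differences between times had adjusted p-values of 0.519 (Retn) and 0.169 (Adipor1), where 6.29% of genes passed. The difference in harmonics was lost for Retn in that fit (adjusted p = 0.217) and without the 10 libraries (adjusted p = 0.131). Adipor1 passed in both (adjusted p = 0.0365 and 0.0231), where 16.2% and 19.7% of genes did. Lepr passed this test with the lymphocyte score (adjusted p = 0.0362). With the TEC share the differences between times had adjusted p-values of 0.513 (Retn) and 0.792 (Adipor1, edgeR), where 0.01% of genes passed. Neither gene then passed the test for unlike harmonics, where 0% of genes did. Retn kept its call in 31 of 48 fits with 1 library left out. The 17 that lost it were without 6 AL libraries (replicates 1 and 4 at 8AM, 3 and 4 at 4PM, 2 and 4 at 4AM) and 11 TAN libraries (replicates 2, 3 and 4 at 8AM, 1 at 12PM, 1 and 3 at 4PM, 2 and 3 at 12AM, 1, 2 and 3 at 4AM), with adjusted p-values up to 0.075. Adipor1 kept it in 47, the exception being replicate 4 of AL at 8AM (adjusted p = 0.0514).

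Genes that act with the 10 were followed as 4 lists. Of 17 genes of leptin signalling, all tested, 1 passed at 4PM, Jak2, the kinase bound to the leptin receptor, which fell by 1.10 on the log2 scale (SE 0.29, adjusted p = 0.0159, edgeR), against 15.3% of all genes called at that time. The median log2 fold change of the list was -0.36 at 4PM. Jak2 was also the gene of this list whose TAN effect differed between times (adjusted p = 0.038), where 8.98% of all genes passed. With the lymphocyte score in the fit it was at -0.46 at 4PM (adjusted p = 0.477), and its slope on that score was positive (0.11, adjusted p = 0.00016). At 8PM 1 of the 17 passed, Leprotl1, a relative of the leptin receptor overlapping transcript, which rose by 0.82 (SE 0.28, adjusted p = 0.0476, edgeR). Of all genes 11.7% passed at 8PM. The list median at 8PM was 0.15, against -0.10 over all genes. Over the lymphocyte score 7 of the 17 had a positive and 3 a negative slope, where 23.1% and 21.8% of all genes did. Among the positive ones were the feedback inhibitors Socs3 (0.24) and Socs1 (0.33) and the phosphatase Ptpn1 (0.19).

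Of 19 genes of adiponectin signalling 2 were higher in TAN at 4PM, Gstk1, an enzyme tied to adiponectin assembly (log2 1.10, adjusted p = 0.0389), and Rab5a, a small GTPase of early endosomes (0.60, adjusted p = 0.0393, edgeR). Of all genes 6.54% were called higher at that time. At 8PM, when 11.7% of all genes passed, 4 of the 19 did: Gipc1, a scaffold protein, was higher (1.06, adjusted p = 0.023), while the AMPK subunit Prkab2 (-1.26, adjusted p = 0.0247), the adaptor Appl2 (-0.72, adjusted p = 0.0294) and the coactivator Ppargc1a (-1.56, adjusted p = 0.0341) were lower. All 4 also passed with the lymphocyte score in the fit, where 19.3% of all genes did at 8PM. In that fit 0% of all genes passed at 4PM. The genes of this list were not followed in the fit with the TEC share, where 1.04% of all genes passed at 8PM. The list medians were 0.08 at 4PM and -0.16 at 8PM.

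Partners of the other ligands, 22 tested of 24, held 3 genes lower in TAN at 4PM: Cap1, reported as a resistin-binding protein (-0.94, adjusted p = 0.0271), Cfp, properdin of the complement pathway in which adipsin acts (-1.35, adjusted p = 0.0319), and the neuregulin co-receptor Erbb3 (-1.20, adjusted p = 0.0274, edgeR). Of all genes 8.77% were called lower at that time. In the fit with the lymphocyte score Erbb3 was at -1.41 (adjusted p = 0.171), Cap1 at -0.15 and Cfp at -0.49. The list medians were -0.23 at 4PM and -0.56 at 8PM. Of the direct receptors, Aplnr had a median of 37.5 CPM, the adiponectin-binding cadherin Cdh13 21.0, Erbb4 5.32, Erbb3 4.89 and Stra6, the membrane receptor of Rbp4, 0.656. Aplnr, Cdh13, Erbb4 and Stra6 did not pass in any TAN comparison at a single time or in the mean. Stra6 had no counts in 15 of 48 libraries and a positive slope on the lymphocyte score (1.17, adjusted p = 8.09e-07), the same sign as Lepr, while Aplnr (-0.16) and Cdh13 (-0.13) had negative ones.

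A list of other adipokines and related genes, 32 tested of 35, had 2 genes higher in TAN at 4PM, the secreted peroxidase Gpx3 (1.19, adjusted p = 0.0311) and C1qtnf12, an adiponectin relative (1.14, adjusted p = 0.0456, edgeR), with a list median of 0.54. Of all genes 6.54% were called higher at 4PM. At 8PM Angptl4, an inhibitor of lipoprotein lipase that rises in fasting, was lower in TAN (-2.03, SE 0.42, adjusted p = 0.00341), and the list median was 0.00265. Of all genes 7.91% were called lower at 8PM. In the mean over the day Nnat (-0.64, adjusted p = 0.0383) and C1qtnf3 (-1.995, adjusted p = 0.0478) were lower, where 2.74% of all genes were, with a list median of -0.12 against -0.08 over all genes. C1qtnf3 had 244 counts in all and none in 19 of 48 libraries, so its fold change is poorly determined. Of the 32 genes 4 passed the test for an unlike effect between times, where 8.98% of all genes did. Among them were Rarres2 (adjusted p = 0.0374), Angptl4 (adjusted p = 0.0254) and Gpx3 (adjusted p = 0.0342, edgeR). On the lymphocyte score 18 of the 32 had a negative slope, as the 7 ligands did, where 21.8% of all genes did, and 2 a positive one, Tnf (0.52) and Tgfb1 (0.24).

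The genes with the most similar pattern were found from the Pearson r of mean log2 CPM over the 12 groups, among 9825 genes with a mean of at least 10 CPM. Points in these comparisons share libraries and their cell makeup, so the r is a description. For Adipoq the nearest were Amy1 (r = 0.99), Auh and Chp1, for Retn Dbi (0.99), Chid1 and S100a1, for Cfd Gm14117 (0.98), Mycbp and Scp2, and for Rbp4 Mrpl38 (0.98), Ppp1r1a and Aldh1a7. For Lep they were Hoxc5 (0.97), Gosr1 and Crk, for Nrg4 Crtac1 (0.94), Adcyap1r1 and Cyp2e1, and for Apln Foxk2 (0.95), Slc25a44 and Itpk1. Adipor1 lay nearest to Ndufs8 (0.98), Cops6 and Fundc2, and Adipor2 to Ldlrad3 (0.96), Sfxn1 and Trf. Lepr had Pik3cg (0.98), the phosphoinositide kinase of leukocytes, Gcnt1 and the alarmin Il33 (0.98) as its neighbours. Among the 10 themselves, Retn and Cfd were the closest pair (r = 0.94) and Retn and Lepr the most opposed (r = -0.89).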

How the data were processed

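Poly-A RNA was sequenced as paired-end reads. The authors deposited raw read counts per gene for 48 libraries and FPKM values per gene as means of the 4 libraries of each group; the FPKM values served only to check the order of levels. The strand setting, and which of the builds and tools in the submitters' notes made the counts, are not given in the sources used here. Groups come from the labels.

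Counts were fitted in edgeR 4.0.16 (R 4.3.3; TMM, filterByExpr with a minimum count of 10, robust quasi-likelihood test), 1 model over 12 groups, with Benjamini-Hochberg adjustment over 19977 genes. A call is an adjusted p under 0.05. Printed CPM use TMM library sizes, and ± is the SD. The harmonic fit used a period of 24 h. DESeq2 1.42.0 and limma 3.58.1 were alternatives. The scripts were tested on simulated data. P-values measure the spread between these samples.

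The 10 genes, the lists and the tests were chosen with earlier results of these data known. Named from the lists were genes called in a TAN contrast, the mean or the difference between times (at most 8 a list), and the direct receptors (some genes that met this rule are not reported here); members of the lists with slopes, and closest pairs, were added after their values were seen. Nearest patterns are the 3 highest r. Replicate numbers did not pair the diets.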

Additional observations from a re-analysis of the deposited data

Results flagged for a closer look

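In 6 of 120 groups of 4 libraries (10 genes, 12 groups), 1 library lay far from the other 3 by Dixon's criterion; chance alone flags about 1 group in 20. In TAN at 12PM, replicate 3 had 858 CPM of Retn against 1327 to 1432 in the others, and replicate 4 had 111 CPM of Nrg4 against 68.4 to 72.8. Replicate 1 of AL at 4AM had 6982 CPM of Cfd against 12129 to 13233, and replicate 4 of the same group had 324 CPM of Adipor2 against 701 to 792. In AL at 8PM, replicate 1 had 2.95 CPM of Apln against 7.74 to 8.52, and replicate 4 had 203 CPM of Adipor1 against 158 to 162.

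The TAN effect differed between the 6 times for Retn (adjusted p = 0.0407) and Adipor1 (adjusted p = 0.0287) by edgeR's interaction test. The 24-h harmonics of the 2 diets differed for Retn (adjusted p = 0.0113) and Adipor1 (adjusted p = 0.00316, edgeR). The groups with 3 of 4 libraries poor in lymphocyte RNA (TAN at 4PM) are among those with the highest Retn, and the part of lymphocyte RNA in these differences was not tested beyond the fits with the lymphocyte score as a covariate.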

How the results depend on the processing

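The counts below are of the 10 genes called by edgeR; 3 alternatives (without the 10 libraries poor in lymphocyte RNA, without the 2 TAN libraries at 8PM lowest in adipocyte markers, and the adipocyte score as a covariate) were chosen after seeing the data. For TAN against AL at each time, 4 of 60 tests were called, against 1 with the lymphocyte score, 0 with the share of TEC loci, 7 in separate fits of each time, 8 by DESeq2, 0 without the 10 libraries and 10 without the 2. The range with 1 library left out was 1 to 7 (1 without replicate 3 of AL or replicate 1 of TAN at 4PM, 7 without replicate 2 of TAN at 8PM). Of all genes 15.3% were called at 4PM, against 0% with the lymphocyte score, 0.365% with the TEC share, 27.2% in separate fits, 21.8% by DESeq2 and 20.3% without the 2. At 8PM the share of all genes was 11.7%, against 19.3%, 1.04%, 0.34%, 16% and 10.8% in the same order. By limma voom Retn, Cfd, Rbp4, Lepr and Adipor1 were called at 4PM (17.8% of all genes) and Adipor1 at 8PM (18.6%). The fit with the adipocyte score called Lep at 12PM (0.621%), Rbp4 at 4PM (2.29%), and Nrg4 and Adipor1 at 8PM (21.8%). For the mean effect the 2 calls became 0 with the TEC share, 0 at a log2 change over 1, 4 without the 10, 7 without the 2, and 3 by DESeq2 (Lepr added) or with the adipocyte score (Lep added), with a range of 1 to 3. For the difference between times the 2 calls became 1 with no filter, 1 by limma voom, 0 with the lymphocyte score, 0 with the TEC share, 0 without the 10 and 6 without the 2, with a range of 0 to 3 (0 without replicate 4 of AL at 8AM). Variation between times gave 0 calls in AL and 1 with the adipocyte score; in TAN the 3 calls became 1 with the lymphocyte score, 1 with the TEC share, 1 without the 10 and 5 without the 2, with a range of 0 to 7 (0 without replicate 2 at 12AM, 7 without replicate 4 at 8PM). The 24-h harmonic gave 0 calls in AL and 1 with either score; in TAN the 2 calls became 0 with the TEC share, 1 without the 10, 6 without the 2 and 5 with the adipocyte score, with a range of 2 to 3. Unlike harmonics, 2 calls, became 0, 1, 6 and 4 under the same settings in that order, with a range of 2 to 6 (4 and 6 without replicates 1 and 2 of TAN at 8PM), and with the lymphocyte score 2 were called, of which Lepr in place of Retn. Of 10 slopes on the lymphocyte score 1 was left with the adipocyte score added, and 9 to 10 with 1 library left out. The share of all genes called moved with the setting too. For the mean effect it was 5.42%, against 3.37% with the TEC share, 12.3% without the 2, 7.69% by DESeq2 and 7.76% with the adipocyte score. For the difference between times it was 8.98%, against 0.01% with the TEC share and 17.4% without the 2. For the 24-h harmonic in TAN it was 19.8%, against 1.25% with the TEC share, 26.1% without the 2 and 35.4% with the adipocyte score. The cause was not tested.

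Among called differences, mean effects and slopes, signs turned for Adipor1 at 8PM with the TEC share (-0.0612), the mean effect of Lep without the 10 libraries (0.0647), that of Adipoq with the TEC share (-0.0268) and the adipocyte score (-0.0232), and the slopes of Cfd (0.00175) and Adipor2 (0.00305) with the adipocyte score added. Of the 60 differences at single times, called or not, 13 changed sign with the lymphocyte score, 15 with the TEC share, 11 with the adipocyte score, 12 without the 10 libraries, 6 by limma voom and 0 by DESeq2. For single genes, 320 values kept direction and call, 11 gained and 50 lost the call; with 1 library left out these were 1386, 7 and 47. Replicate numbers did not pair the diets (5 of 24 same-numbered pairs had r above 0.1, and 6 of 24 AL libraries correlated best with their own number); with them as a replicate block 3 of 60 tests at single times, 1 difference between times and 9 slopes were called. A fit of only the libraries poor in lymphocyte RNA could not be run, since no time then has both diets. Depth limits Apln and Lepr, with as few as 57 and 20 counts in a library, and C1qtnf3, with 244 in all.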
